A study of Mus musculus with 15 samples.

Results

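Cytochromes P450 (Cyp), carboxylesterases (Ces), UDP-glucuronosyltransferases (Ugt), sulfotransferases (Sult) and glutathione S-transferases (Gst) were followed in distal colon mucosa of mice with and without chronic colitis. The members were chosen by name: non-control probes whose gene name in the scanner files begins with Cyp, Sult or Ces and a digit, with Ugt1, Ugt2 or Ugt3, or with Gsta, Gstm, Gstp, Gstt, Gsto, Gstk or Gstz and a digit. This rule named 235 probes of 174 genes; 131 probes of 105 genes rose well clear of background on 5 or more of 15 arrays, out of 22012 genes that passed the same filter on the whole array. The 105 members comprised 59 of 101 Cyp genes, 8 of 14 Ugt, 8 of 19 Sult, 19 of 20 Gst and 11 of 19 Ces genes. The rule uses names and detection only, but it was chosen with earlier results of these data known.

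These enzymes make lipophilic compounds excretable. In phase 1, P450 enzymes insert oxygen and carboxylesterases split esters and amides; in phase 2, UGT, SULT and GST enzymes attach glucuronic acid, sulfate or glutathione, and transporters then export the products. The colon epithelium meets drugs, diet and bacterial metabolites, and many members also act on the body's own substrates: retinoic acid, arachidonic acid, cholesterol, bile acids, steroids and fatty acid esters. In liver and gut their transcription is governed by ligand-activated receptors (the aryl hydrocarbon receptor Ahr, the pregnane X receptor Nr1i2, the constitutive androstane receptor Nr1i3) and by Nfe2l2, the regulator of the oxidative stress response.

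The study used female Balb/cJ mice, 8 weeks old at the start, in 3 groups of 5. Water mice drank water; DSS mice drank 4% dextran sulfate sodium, which injures the colon epithelium, for 4 days at a time in 3 cycles, with 3 days of plain water in between, and received the vehicle of filgotinib; filgotinib mice had the same DSS course and 30 mg/kg filgotinib, an inhibitor of the kinase JAK1, by gavage once a day. The compound label of the water mice reads vehicle control while the design text names only drinking water, so whether they were gavaged is not clear. Mucosa was scraped from the most distal 30 mm of the descending colon, and RNA of 1 mouse was hybridised to each Agilent 1-colour array.

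Values are relative signals: the processed signal of a gene's brightest passing probe divided by the 75th percentile of that array. They compare mice for 1 gene and do not rank genes against each other. Before scaling, that percentile was 684 to 813 in water mice, 570 to 667 in DSS mice and 552 to 663 in filgotinib mice, no spot was saturated, and 50.2% to 62.1% of probes were well above background. Fold changes (log2, with SE) and adjusted p-values come from 1 limma fit over all 15 arrays, adjusted by Benjamini-Hochberg over the 22012 genes, with 0.05 as the threshold for rose or fell. The absorptive colonocyte and goblet markers fixed for the tissue were all measured (10 of 10 and 7 of 7). Whole mucosa was measured, so fewer cells of a type and less RNA per cell cannot be told apart.

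Of the members, 88 were well above background on all 15 arrays and 17 on 5 to 14. Ces1b, Cyp2a4, Cyp2a5 and Ugt3a2 passed on exactly 5 arrays; just outside were Cyp2b9 on 3 arrays, all of water mice, and Cyp2c39 and Ugt2b1 on 2 each. The 68 named genes that did not pass were dim on every array in 47 cases; among them Ces1g, Cyp3a44, Cyp4b1, Cyp27b1, Ugt2b5 and Ugt2a3 were well above background on no array, and the classical Ahr targets Cyp1a1, Cyp1a2 and Cyp1b1 on 1 array each, as were Cyp24a1 and Cyp7b1. Cyp4a14 lost its probe to an outlier mark on 1 array. No probe carried the name Gsta1, Ugt1a1 or Ugt1a7c.

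The carboxylesterase cluster on chromosome 8 carried the largest grouped change, so its upstream sequences are given here. The RefSeq promoter table (GRCm38.p6) held 83 of the 105 members; 250 bases before the first listed transcription start were read. Ces1b (chr8:93079941-93080190, minus strand), Ces1c (chr8:93131284-93131533, minus strand) and Ces1e (chr8:93229620-93229869, minus strand) are shown because the first pair was lower with filgotinib than in water mice while Ces1e did not pass that test. Ces1d and Ces1f had no entry in the promoter table, so Ces1e is the only other measured CES1 gene shown. Ces1b passed the filter through the water mice alone, so its fall, and with it this choice of sequences, is partly a matter of selection. A link between these sequences and the expression of the genes was not tested. Capitals mark the longest run that Ces1b and Ces1c share, 58 bases, which in Ces1b spans 173 to 116 bases before the start and in Ces1c 184 to 127.
Ces1b: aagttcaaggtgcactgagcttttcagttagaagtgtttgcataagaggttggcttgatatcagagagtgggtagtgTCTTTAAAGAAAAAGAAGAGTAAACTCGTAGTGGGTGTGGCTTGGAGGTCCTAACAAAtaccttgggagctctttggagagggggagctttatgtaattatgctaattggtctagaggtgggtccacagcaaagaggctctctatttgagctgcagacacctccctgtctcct
Ces1c: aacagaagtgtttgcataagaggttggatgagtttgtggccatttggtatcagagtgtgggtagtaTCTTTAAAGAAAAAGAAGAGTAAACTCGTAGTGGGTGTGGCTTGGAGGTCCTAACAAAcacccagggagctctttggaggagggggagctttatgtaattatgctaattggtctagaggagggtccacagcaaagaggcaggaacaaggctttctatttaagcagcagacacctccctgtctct
Ces1e: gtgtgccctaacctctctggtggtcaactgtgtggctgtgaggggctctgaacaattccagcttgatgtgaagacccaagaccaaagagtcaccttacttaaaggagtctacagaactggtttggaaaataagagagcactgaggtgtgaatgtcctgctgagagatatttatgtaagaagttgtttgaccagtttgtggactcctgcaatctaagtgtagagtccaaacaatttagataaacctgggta
Aligned end to end, Ces1b and Ces1c were identical over 76.2% of alignment columns, against 47.9% for Ces1b with Ces1e and 44.4% for Ces1c with Ces1e. The 21 pairs among 7 Gstm genes lay between 43.7% and 48.8%.

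Motif letters were searched on both strands in the same windows. The antioxidant response element TGACNNNGC occurred in 3 of 83 member promoters (3.6%) and in 10.1% of all 27025 promoters in the table; the Ahr core GCGTG in 17 (20.5%) against 28.2%; the STAT palindrome TTCNNNGAA in 2 (2.4%) against 7.2%; and the nuclear receptor hexamer AGGTCA in 10 (12%) against 13.8%. These are matches of letters and say nothing about binding. Gsta3 (chr1:21240335-21240584, plus strand) is printed as a member that fell with DSS and was higher with filgotinib, Gstm1 (chr3:108017974-108018223, minus strand) for the GST mu group and Cyp2b10 (chr7:25897408-25897657, plus strand) for a P450 that fell with DSS and whose window holds the Ahr core more than once. Capitals mark the searched motifs: TGACNNNGC in Gsta3, GCGTG in Gstm1 and 2 of them in Cyp2b10, all read on either strand.
Gsta3: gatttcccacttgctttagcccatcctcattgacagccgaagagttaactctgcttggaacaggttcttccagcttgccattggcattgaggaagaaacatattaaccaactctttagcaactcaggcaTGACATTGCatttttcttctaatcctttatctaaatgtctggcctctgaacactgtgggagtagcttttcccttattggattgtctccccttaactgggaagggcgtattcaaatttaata
Gstm1: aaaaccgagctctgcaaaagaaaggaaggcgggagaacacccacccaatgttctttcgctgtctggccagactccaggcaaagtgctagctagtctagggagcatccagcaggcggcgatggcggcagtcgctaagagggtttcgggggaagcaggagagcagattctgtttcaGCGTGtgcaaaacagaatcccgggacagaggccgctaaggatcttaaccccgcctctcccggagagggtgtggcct
Cyp2b10: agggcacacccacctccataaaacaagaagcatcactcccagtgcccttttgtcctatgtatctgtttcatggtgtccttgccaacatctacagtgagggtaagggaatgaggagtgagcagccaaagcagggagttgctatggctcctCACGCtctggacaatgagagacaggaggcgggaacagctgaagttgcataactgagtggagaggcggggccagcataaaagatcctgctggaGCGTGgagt

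Repeated DSS against water asked what chronic colitis does to these enzymes. Of 11 carboxylesterases 7 fell, among them all 5 measured CES1 genes; 2 of 7 GST mu genes, Gsta3, 2 UGT and 2 SULT genes also fell, and the retinoic acid hydroxylase Cyp26b1 had the highest fold among the members that rose. Of the 105 members 8 rose and 17 fell, which is 7.62% and 16.2%; over all 22012 genes 10.8% rose and 8.41% fell. The median member log2 fold change was -0.07 against 0.05 over all genes. With arrays scaled to a common median in place of the 75th percentile, 2 members rose and 17 fell, and over all genes the split went from 2368 higher and 1851 lower to 956 and 1566. Of the members that fell, 3 (Ces1b, Cyp2b10 and Ugt2b35) were well above background in no DSS mouse and had passed the filter through the other groups, so their fall is partly a matter of selection; asking for 10 arrays left 94 members, of which 9 rose and 14 fell.

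**Figure D1:**
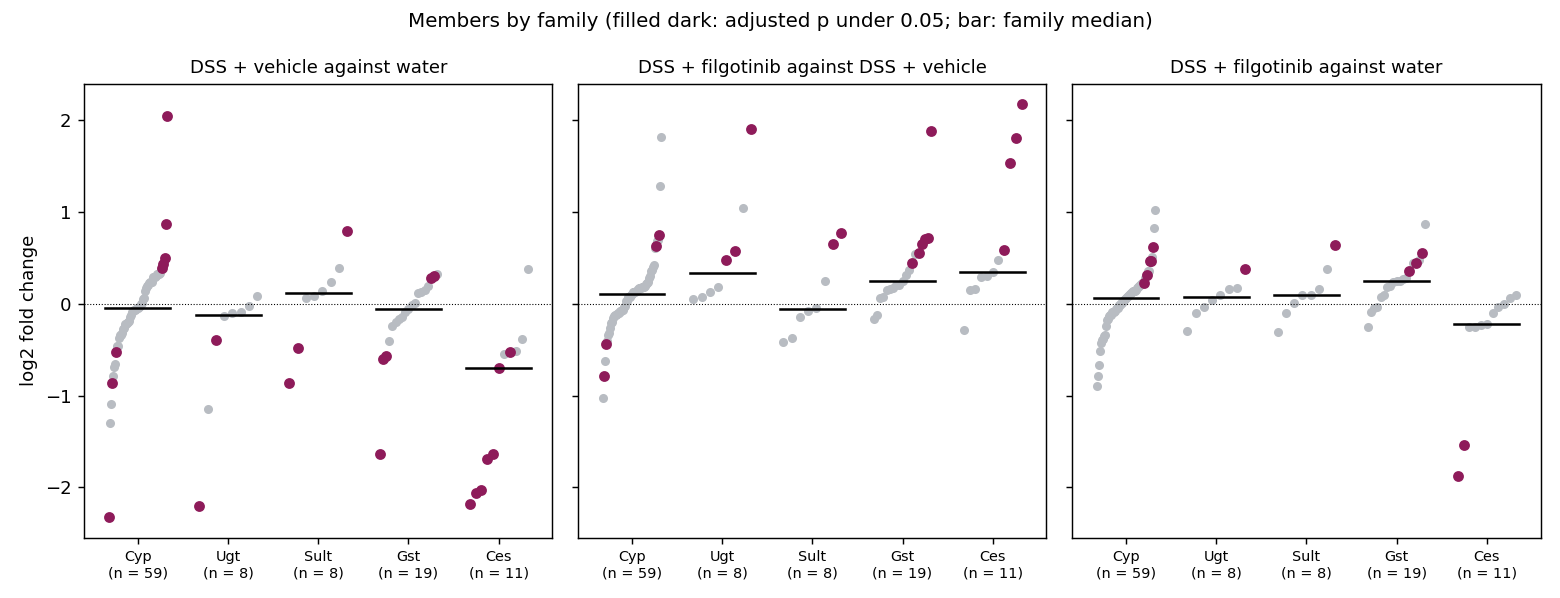
Log2 fold change of each of the 105 members by enzyme family in the 3 comparisons (each point 1 gene, ordered by value within its family; dark points passed adjusted p 0.05; bars are family medians). The Ces median was -0.70 for DSS against water and 0.35 for filgotinib against DSS, while the Cyp medians were -0.04 and 0.10.

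Carboxylesterases of the CES1 group hydrolyse ester drugs and lipid esters. Of 8 CES1 genes on the array 5 passed the filter, and all 5 fell with DSS, with a median log2 fold change of -2.03; Ces1a, Ces1g and Ces1h did not pass. Ces1d (probe at chr8:95698949-95699008, mm9), a triacylglycerol and ester hydrolase, had relative signals of 0.55, 0.511, 0.364, 0.351 and 0.501 in water mice 1 to 5 and 0.0407, 0.186, 0.0797, 0.0735 and 0.215 in DSS mice 1 to 5. Every DSS mouse lay below every water mouse, and the fitted level was 4.52-fold lower (log2 -2.18 ± 0.46 SE, adjusted p = 0.00575). Ces1e gave 0.649, 0.687, 0.412, 0.444 and 0.667 in water mice and 0.0674, 0.23, 0.129, 0.0918 and 0.236 in DSS mice, 4.16-fold lower (adjusted p = 0.00420). Ces1f gave 0.281, 0.323, 0.16, 0.172 and 0.247 and 0.0462, 0.112, 0.0605, 0.0617 and 0.111, 3.10-fold lower (adjusted p = 0.0169). In both genes the groups were again separate.

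Ces1c and Ces1b, whose upstream sequences share the 58-base run above, also fell. Ces1c gave 0.181, 0.161, 0.106, 0.137 and 0.119 in water mice and 0.0545, 0.0636, 0.0136, 0.0333 and 0.0282 in DSS mice, where it was well above background in 2 of 5; it was 4.08-fold lower (adjusted p = 0.00741). Ces1b gave 0.0524, 0.0767, 0.0459, 0.0584 and 0.0562 in water mice, was not well above background in any DSS mouse, and was at least 1.29-fold lower (adjusted p = 0.00221). The size of these changes depended on background correction: with normexp correction the CES1 median was -0.81, and all 5 still passed. Of 6 CES2 genes, which favour drugs with small acyl groups, Ces2a fell 1.63-fold (adjusted p = 0.0150) and Ces2g 1.44-fold (adjusted p = 0.0132); Ces2b (-0.55, adjusted p = 0.053), Ces2c (-0.51, 0.073) and Ces2f (-0.38, 0.124) were below zero and Ces2e was at 0.37 (0.175), none passing. Ces2b and Ces2c share 24 bases of probe sequence, so their signals cannot be fully separated. Water and DSS mice did not overlap for 7 of the 11 Ces members, against 16% of all genes.

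**Figure D2:**
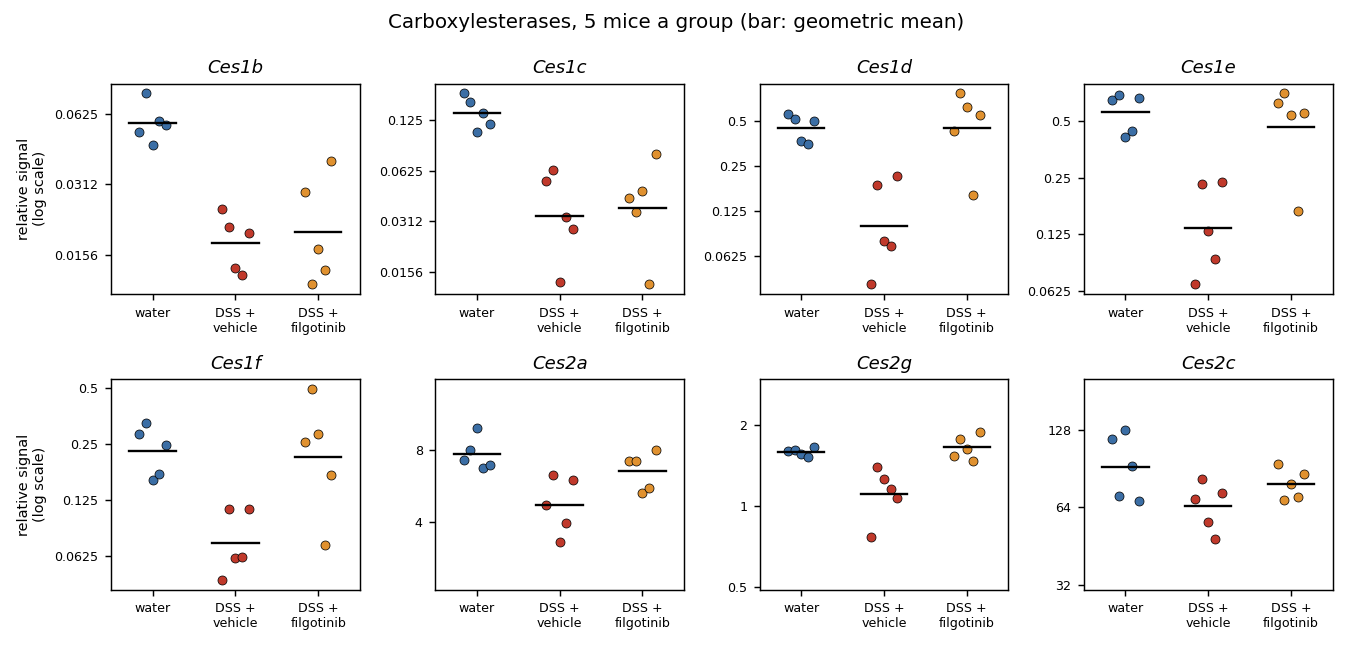
Relative signal of 8 carboxylesterase genes (log axis) in each of 5 mice a group; bars are geometric means, and signals not well above background are drawn at their measured value. Ces1d, Ces1e and Ces1f are low in DSS mice and, except in mouse 4, near the water mice with filgotinib, whereas Ces1b and Ces1c are low in both DSS groups.

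Among 59 P450 enzymes 5 rose and 3 fell, a smaller share than the 19.2% of all genes called in either direction. Cyp26b1, which hydroxylates and so inactivates retinoic acid, gave 0.0395, 0.0479, 0.0525, 0.0198 and 0.0375 in water mice and 0.0996, 0.094, 0.229, 0.152 and 0.269 in DSS mice; the DSS mice lay above all water mice, and the fitted level was 4.12-fold higher (log2 2.04 ± 0.40 SE, adjusted p = 0.00379). Its probe was well above background in 3 of 5 water mice. Cyp4x1, an orphan member of the fatty acid CYP4 family, rose 1.82-fold (adjusted p = 0.00478) and Cyp4f40 1.31-fold (adjusted p = 0.0164; 0.0781 with median scaling and 0.0626 with scan day as a block). The other members that rose were Cyp2c68 (1.35-fold, adjusted p = 0.0156) and the pseudogene Cyp2d37-ps (1.40-fold, adjusted p = 0.0120), both from clusters of close relatives; with median scaling their adjusted p-values were 0.0993 and 0.0728. Probes of Cyp2c68 and Cyp2c67 share 25 bases.

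Cyp2b10, a classical target of Nr1i3, gave 0.15, 0.102, 0.0617, 0.104 and 0.232 in water mice and was not well above background in any DSS mouse, where it was at least 2.67-fold lower (adjusted p = 0.0143). Cyp2c55, an arachidonic acid hydroxylase abundant in colon, gave 81.2, 80.8, 83.1, 107 and 80.7 in water mice and 50.1, 69.1, 30.2, 51.5 and 43.2 in DSS mice. All DSS mice lay below the water mice, with a 1.83-fold lower level (adjusted p = 0.00529), and its other probe gave -1.08 on the log2 scale. Cyp2d22 fell 1.44-fold (adjusted p = 0.0169), with overlapping groups. The drug-metabolising Cyp3a11 (-0.04, adjusted p = 0.927), Cyp3a13 (-0.09, 0.779), Cyp2s1 (0.00, 1.00) and Cyp2e1 (-0.46, 0.679) did not pass, nor did the fatty acid hydroxylases Cyp4f14 (-0.13, 0.754) and Cyp4f16 (-0.23, 0.505). None of 7 sterol and steroid P450 genes passed: Cyp51 of cholesterol synthesis was at 0.29, Cyp27a1 of bile acid synthesis at 0.33 and the side-chain cleavage enzyme Cyp11a1 at -0.78.

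Conjugating enzymes moved in both directions, next to 10.8% of all genes that rose and 8.41% that fell. In the UGT family 2 of 8 fell: Ugt2b35 gave 0.0442, 0.082, 0.060, 0.0745 and 0.0746 in water mice, was not well above background in any DSS mouse, and was at least 1.48-fold lower (adjusted p = 5.38e-05); Ugt1a10 fell 1.32-fold (adjusted p = 0.0355), a call that was lost without any 1 of 7 mice (adjusted p up to 0.0883). Sult2b1, which sulfates cholesterol, gave 9.04, 7.15, 9.82, 9.65 and 8.33 in water mice and 4.21, 4.79, 4.43, 5.72 and 4.96 in DSS mice. The groups were separate, with a 1.82-fold lower level (log2 -0.87 ± 0.14 SE, adjusted p = 0.00134). Sult1a1, which sulfates phenols, gave 49.9, 59.5, 48, 47.5 and 49.7 and 33.7, 41.4, 32.4, 35.3 and 39.8, 1.40-fold lower and also separate (adjusted p = 0.0129). Sult1b1 (0.23, adjusted p = 0.136) and Sult1d1 (0.09, 0.699) did not pass. Sult4a1 was higher by 0.79 on the log2 scale (adjusted p = 0.0463), but 9 of the 15 fits that left out 1 mouse lost that call (adjusted p up to 0.109).

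In the GST family, Gsta3 gave 1.72, 2.2, 1.07, 1.71 and 1.83 in water mice and 0.157, 0.48, 0.90, 0.609 and 1.05 in DSS mice, 3.11-fold lower (log2 -1.64 ± 0.45 SE, adjusted p = 0.0211). No DSS mouse reached a water mouse, mouse 1 being far below the others; without water mouse 2 the adjusted p was 0.0519. All 7 GST mu genes on the array were measured and had a median of -0.24; all 7 values were below zero under each of the 5 scalings. Gstm6 fell 1.51-fold (adjusted p = 0.0161) and Gstm7 1.49-fold (adjusted p = 0.00207) and the other 5 did not pass. Gstp2 rose 1.21-fold (adjusted p = 0.00666) and Gsto1 1.24-fold (adjusted p = 0.0120), small changes that did not pass with median or quantile scaling. Gstk1, Gstz1 and the 3 theta genes did not pass.

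Water and DSS mice did not overlap for 23 of 105 members (21.9%), 7 of them higher and 16 lower in DSS mice, against 16% of all genes, of which 9.84% were higher and 6.2% lower. Slides and scan days held unequal numbers of each group: slide 4, the only slide with both, held 1 DSS mouse and 2 water mice, and there all 25 called members kept their sign, Ces1d at -1.20, Cyp26b1 at 1.08 and Ugt1a10 at -0.01. With slide as a block, Ugt2b35 alone stayed past the threshold (adjusted p = 0.0330), and over the whole array 34 genes were called higher and 50 lower; with scan day as a block 19 of the 25 kept their call; Ces1f (adjusted p = 0.0575), Cyp2d22 (0.0504), Sult1a1 (0.0516), Cyp4f40, Sult4a1 (0.0717) and Ugt1a10 (0.0845) did not.

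Some markers of cell types and of proliferation also differed between water and DSS mice, next to 10.8% of all genes that rose and 8.41% that fell. All 6 proliferation markers fell with DSS, their summed relative signal going from 19.4 to 46.6 in water mice to 6.52 to 19.2 in DSS mice, and all 4 measured crypt stem markers fell, from sums of 8.84 to 10.8 to sums of 0.257 to 1.31. Of 8 hepatocyte markers 6 were measured and 3 fell: Alb (log2 -2.94), Ttr (-1.63) and Cps1 (-1.38); Apoa2 (0.12), Serpina1a (0.90) and Tat (0.57) did not pass, and Apoa1 and Fgb were not above the filter. The summed hepatocyte signal was 12.8 to 19.6 in water mice and 9.82 to 10.7 in DSS mice. Of the epithelial lists, 4 of 7 goblet markers rose (Agr2, Muc2, Zg16 and Tff3 by 0.26 to 0.41; sums of 2128 to 2553 in water mice and 2626 to 3106 in DSS mice), as did Car1 (0.52) and Krt20 (0.30) of 10 absorptive colonocyte markers, whose sums overlapped (937 to 1293 and 1092 to 1344). Neutrophil markers rose for 2 of 5 measured genes, led by S100a9 (3.85). Of 4 mast cell markers Mcpt1 (4.52) and Mcpt2 (3.97) rose and Cma1 fell (-0.92). Of 4 enteric neuron and glia markers 2 rose (sums of 0.890 to 1.20 and 1.84 to 2.74), and 1 of 4 rose in each of the T and NK and the B and plasma cell lists. No macrophage, fibroblast, smooth muscle or endothelial marker was called. Yet 8 of 8 macrophage (median log2 0.73), 5 of 6 fibroblast (1.69) and 6 of 6 smooth muscle markers (1.24) lay above zero, and 2 of 4 endothelial markers (0.20). All 5 measured squamous epithelium markers lay above zero and 1 rose. Adipoq and Plin1, which define adipocytes, did not pass the filter. The part of these markers in the enzyme changes was not tested.

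Filgotinib against its vehicle, both under DSS, asked how JAK1 inhibition changed these enzymes in colitis. Most called members were higher with filgotinib: 3 CES1 genes, Gsta3, 5 of 7 GST mu genes, 3 UGT and 2 SULT genes. Of 105 members 17 rose and 2 fell, 16.2% and 1.90%, against 6.78% and 4.52% of all 22012 genes; the member median was 0.16 and the median of all genes 0.0012. The DSS mice given vehicle serve in this comparison and in the former, so a low value in them enters both; the values are given side by side and no overlap of the lists is read as a result. Fitted on these groups alone, 11 members rose.

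Ces1d gave 0.428, 0.761, 0.612, 0.161 and 0.544 in filgotinib mice 1 to 5, against the DSS values of 0.0407 to 0.215 above. Mouse 4 lay within the DSS range and the other 4 mice above it; the level was 4.49-fold higher (log2 2.17 ± 0.46 SE, adjusted p = 0.0101). Ces1e gave 0.629, 0.706, 0.538, 0.167 and 0.555, 3.48-fold higher (adjusted p = 0.0143), again with mouse 4 inside the DSS range. Ces1f gave 0.255, 0.492, 0.28, 0.0717 and 0.169, 2.88-fold higher (adjusted p = 0.0348), a call lost without any 1 of 7 mice (adjusted p up to 0.0900). Ces1c, at 0.0432, 0.0356, 0.0474, 0.0132 and 0.0785, did not pass (log2 0.15 ± 0.45 SE, adjusted p = 0.860). Ces1b was not well above background in any DSS or filgotinib mouse, so no difference between them was measured; the difference between Ces1c and the other CES1 genes was not tested. With normexp correction the CES1 median was 0.84 in place of 1.53, and the same number, 3, passed. Ces2g rose 1.49-fold (adjusted p = 0.0131), with all filgotinib mice (1.47 to 1.89) above all DSS mice (0.766 to 1.40).

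The GST mu genes, which detoxify electrophiles and lie together on chromosome 3, were all above zero, 5 of 7 passing, with a median of 0.55. Gstm3 gave 24.4, 35.4, 43, 37.8 and 42.8 in DSS mice and 63.9, 70.2, 55.1, 44.7 and 65.3 in filgotinib mice, 1.64-fold higher (log2 0.72 ± 0.16 SE, adjusted p = 0.0141). Gstm2 gave 41.6, 58.5, 58.4, 55.5 and 54.9 and 71, 73.8, 72.3, 66 and 80.4, 1.36-fold higher (adjusted p = 0.0101). Gstm4 gave 1.08, 1.65, 1.82, 1.65 and 1.69 and 2.55, 2.95, 2.15, 2.0 and 2.68, 1.57-fold higher (adjusted p = 0.0138). In these 3 genes the groups did not overlap. Gstm1 rose 1.62-fold (adjusted p = 0.0143), but its brightest probe is placed on chromosome 5 (chr5:117082490-117082549, mm9) by the array annotation; its other probe gave 0.75 on the log2 scale. Gstm6 rose 1.46-fold (adjusted p = 0.0360; lost without any 1 of 7 mice, up to 0.0834), and Gstm5 (0.21, 0.066) and Gstm7 (0.31, 0.059) did not pass. The mu genes are close relatives and their probes may share signal. All 7 values were above zero under each of the 5 scalings.

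**Figure D3:**
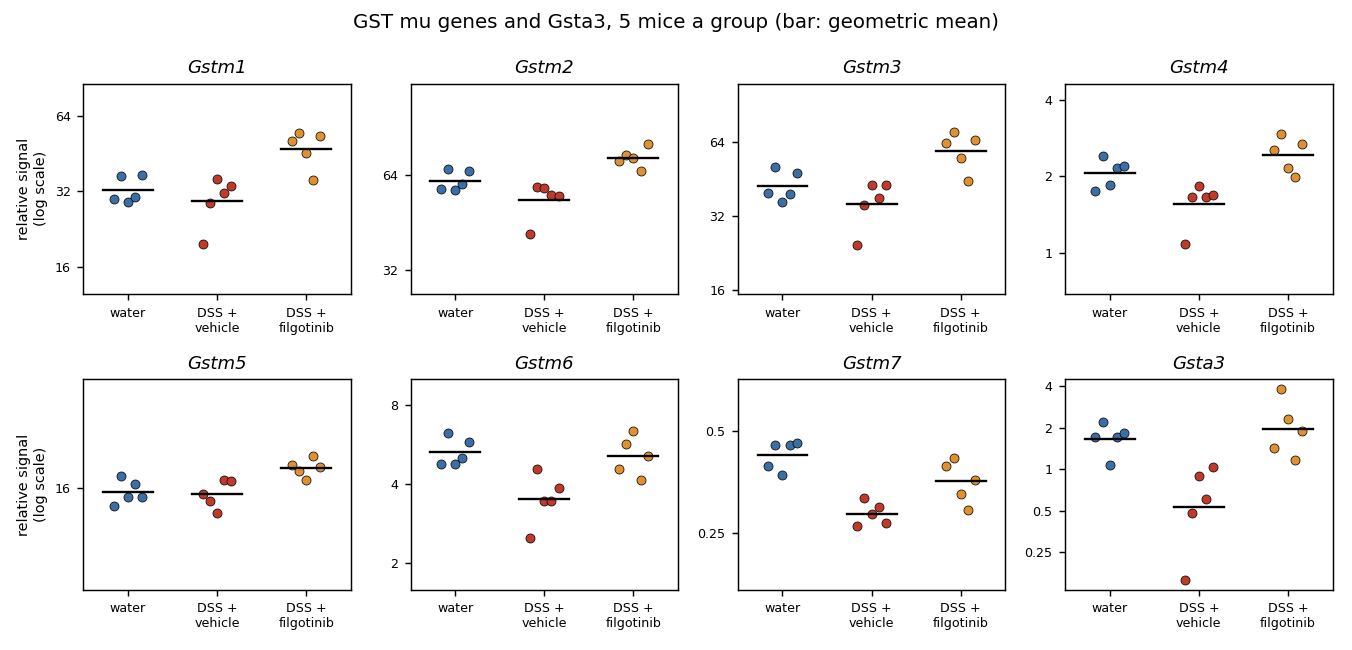
Relative signal of the 7 GST mu genes and Gsta3 (log axis) in each of 5 mice a group; bars are geometric means. Filgotinib mice lie above DSS mice without overlap in Gstm2, Gstm3, Gstm4 and Gsta3, and DSS mouse 1 is the lowest of all mice in 7 of the 8 panels.

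Gsta3, an alpha-class transferase, gave 1.43, 3.83, 2.34, 1.17 and 1.89 in filgotinib mice against 0.157, 0.48, 0.90, 0.609 and 1.05 in DSS mice. The groups were separate and the level 3.66-fold higher (log2 1.87 ± 0.45 SE, adjusted p = 0.0181); its other probe gave 1.85. Gsta2 (0.54, adjusted p = 0.364) and Gsta4 (0.20, 0.215) did not pass.

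All 8 UGT values were above zero and 3 passed, next to 6.78% of all genes that rose. Quantile and normexp scaling left 7 of 8 above zero. Ugt2b35 gave 0.0502, 0.0719, 0.0487, 0.0563 and 0.0436 in filgotinib mice, each above every DSS mouse and 2 of 5 well above background, and was at least 1.21-fold higher (adjusted p = 0.000537). Ugt1a10 gave 0.741, 0.935, 0.789, 0.755 and 0.708 in DSS mice and 1.06, 1.39, 1.17, 1.03 and 1.17 in filgotinib mice, 1.48-fold higher without overlap (adjusted p = 0.0111). Ugt1a6b rose 1.39-fold by its brightest probe (adjusted p = 0.00385), yet its other 2 probes gave 0.45 and -0.27, so its probes disagree; the Ugt1a genes share exons, and a probe there cannot tell them apart.

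Sult1a1 gave 60.2, 53.2, 57.9, 44.1 and 72.4 in filgotinib mice, above all DSS mice (32.4 to 41.4), 1.56-fold higher (log2 0.64 ± 0.12 SE, adjusted p = 0.00514). Sult2b1 gave 11.3, 7.64, 6.32, 8.68 and 7.59, above all DSS mice (4.21 to 5.72), 1.70-fold higher (adjusted p = 0.00509). The other 6 SULT genes did not pass.

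Among the P450 genes 2 of 59 rose and 2 fell, a smaller share than the 11.3% of all genes called in either direction. Cyp2c55 gave 76.5, 88.1, 61.5, 79.1 and 92.9 in filgotinib mice, 1.67-fold higher with overlap (adjusted p = 0.0195; 0.0526 without filgotinib mouse 5). Cyp39a1, an oxysterol hydroxylase of bile acid synthesis, gave 2.6, 2.99, 2.81, 2.83 and 3.47 in DSS mice and 4.97, 4.87, 4.55, 2.99 and 5.6 in filgotinib mice, 1.54-fold higher (adjusted p = 0.0138). Cyp4x1 fell by 0.78 on the log2 scale, from 0.166, 0.128, 0.105, 0.14 and 0.12 in DSS mice to 0.0932, 0.0815, 0.0797, 0.0513 and 0.0798, without overlap (adjusted p = 0.0133). Cyp2d37-ps fell by 0.44 (adjusted p = 0.0321), a call lost without any 1 of 6 mice (adjusted p up to 0.0847). Cyp2b10 gave 0.274, 0.0836, 0.0871, 0.0395 and 0.0487, at least 1.87-fold higher than the DSS mice but not passing (adjusted p = 0.0594), and Cyp26b1 gave 0.0455, 0.0763, 0.188, 0.0551 and 0.0694, a difference of -1.03 ± 0.40 SE that did not pass (adjusted p = 0.108).

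**Figure D4:**
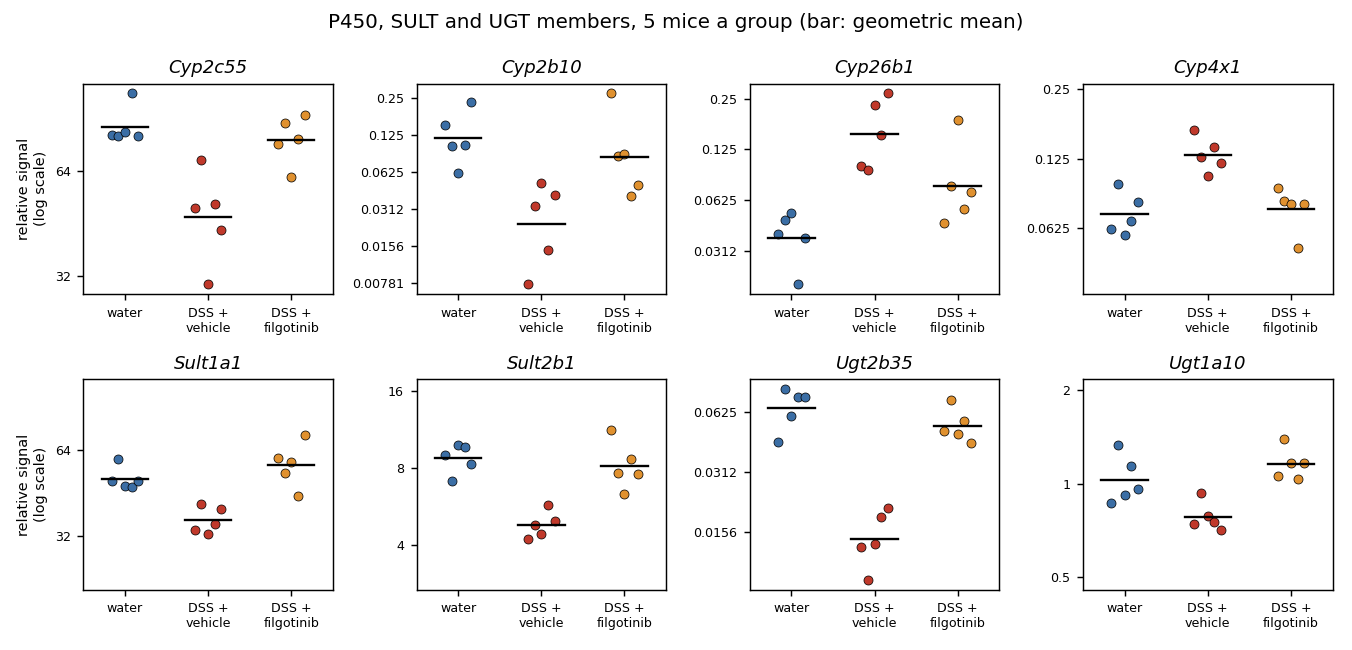
Relative signal of 4 P450, 2 SULT and 2 UGT genes (log axis) in each of 5 mice a group; bars are geometric means, and signals not well above background are drawn at their measured value. Sult1a1, Sult2b1, Ugt2b35 and Ugt1a10 are higher in every filgotinib mouse than in any DSS mouse, while Cyp26b1 overlaps, with filgotinib mouse 3 at 0.188.

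Groups did not overlap for 12 of 105 members (11.4%; 7.99% of all genes, 4.87% higher and 3.12% lower), 10 higher and 2 lower with filgotinib. Slide 2, the only slide with both groups, held 2 filgotinib and 3 DSS mice; all 19 called members kept their sign there, Ces1d at 2.73, Gsta3 at 2.33, Gstm3 at 0.98 and Cyp4x1 at -0.69. With slide as a block 2 members passed, Cyp2c55 (adjusted p = 0.0437) and Ugt2b35 (0.0323), and the other 17 had adjusted p-values of up to 0.147. With scan day as a block 16 of the 19 kept their call, and Ces1f (0.114), Cyp2d37-ps (0.0991) and Gstm6 (0.0748) did not. Marker genes moved here as well: 4 of 6 proliferation markers rose (sums of 13.8 to 28) and none of 4 crypt stem markers (sums of 0.569 to 1.82), while of the 6 measured hepatocyte markers Alb (2.31), Ttr (1.12) and Cps1 (0.62) rose and Apoa2 (-0.08), Serpina1a (-0.18) and Tat (-0.41) lay below zero without passing (sums of 11.4 to 15.3 over the 6). Guca2b alone of 10 absorptive colonocyte markers rose (0.74), and no goblet marker passed the test. The neutrophil marker S100a9 was lower (-3.12), as were Mcpt1 (-2.04) and Mcpt2 (-2.89) of 4 mast cell markers, whereas Cma1 of the same list was higher (1.66). Of 4 enteric neuron and glia markers 2 were lower (sums of 0.949 to 1.36 against 1.84 to 2.74 in DSS mice), and 1 of 4 T and NK markers was lower. Over all genes 6.78% rose and 4.52% fell in this comparison. The part of the markers in the enzyme changes was not tested.

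Filgotinib against water, with colitis and drug both differing, asked which enzymes stayed apart from the uninflamed state. Of 105 members 10 rose and 2 fell, 9.52% and 1.90%, against 6.4% and 3.39% of all genes (9.79% in either direction); the groups did not overlap for 7 members, 5 higher and 2 lower, or 6.67%, against 9.57% of all genes, 6.75% higher and 2.82% lower. The water mice are shared with the DSS comparison. No slide held both water and filgotinib mice, so these groups could not be compared within a slide, and with slide as a block 0 members were called higher or lower. Scan day 1 held 4 filgotinib and 3 water mice, and all 12 called members kept their sign there. Ces1c, at 0.0432, 0.0356, 0.0474, 0.0132 and 0.0785 in filgotinib mice against 0.181, 0.161, 0.106, 0.137 and 0.119 in water mice, was 3.67-fold lower without overlap (log2 -1.88 ± 0.45 SE, adjusted p = 0.0231; 0.0524 when 1 water mouse, 2 or 4, was left out). Ces1b was not well above background in any filgotinib mouse and at least 1.06-fold lower (adjusted p = 0.0123). It had passed the filter through the water mice alone, so its fall is partly a matter of selection. Asking for 10 arrays left 0 of 94 members lower. Ces1d (-0.01), Ces1e (-0.26) and Ces1f (-0.11) did not pass.

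Of the 10 members that rose 4 were Cyp2c genes, and probes of 2 of them, Cyp2c68 and Cyp2c67, share 25 bases. In the wider CYP2 and CYP3 group 5 of 38 genes rose, against 6.4% of all genes. With median scaling Cyp2c40 (adjusted p = 0.1355), Cyp2c67 (0.0805) and Cyp2c69 (0.0538) lost their call, and Cyp2c68 kept it (0.0346). Cyp2c40 and Cyp2c67 each lost it in 8 of the 15 fits that left out 1 mouse. Gstp2, a pi-class transferase, gave 119, 121, 125, 118 and 119 in water mice, 148, 153, 135, 141 and 150 in DSS mice and 167, 174, 145, 165 and 169 in filgotinib mice, 1.36-fold above water (adjusted p = 0.00242). Cyp2c68 gave 6.11, 5.47, 6.67, 4.55 and 5.51 in water mice, 7.34, 8.41, 7.29, 7.66 and 7.31 in DSS mice and 9.36, 9.0, 6.63, 8.96 and 9.39 in filgotinib mice, 1.53-fold above water (adjusted p = 0.0101). For Gstp2 every water mouse lay below every other mouse; for Cyp2c68 water mouse 3, at 6.67, exceeded filgotinib mouse 3. The others were Sult1c2 (1.55-fold, adjusted p = 0.0375), Gstm1 (1.46-fold, 0.0454), Cyp2c69 and Cyp2c67 (both 1.38-fold, 0.0221 and 0.0328), Ugt1a6b (1.3-fold, 0.0168), Gsta4 (1.28-fold, 0.0470), Cyp2c40 (1.24-fold, 0.0374) and Cyp2j8 (1.17-fold, 0.0452). For Gstm1 the probe placed on chromosome 5 gave this rise, and its other probe gave 0.256 on the log2 scale. The Gstm1 call was lost in 12 of the 15 fits that left out 1 mouse, and with the mean of all passing probes. The number of called members depended on scaling: 2 rose and 2 fell with median scaling, 2 and 1 with quantile scaling and with the deposited table. Gstp2 lost its call with quantile scaling, normexp correction and the deposited table. Ugt1a6b lost its call with each of these, with median scaling (adjusted p = 0.0533) and with the mean of all passing probes. Of the 12, Ces1b, Cyp2c68, Gstp2 and Ugt1a6b kept their call when each mouse was left out in turn.

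**Figure D5:**
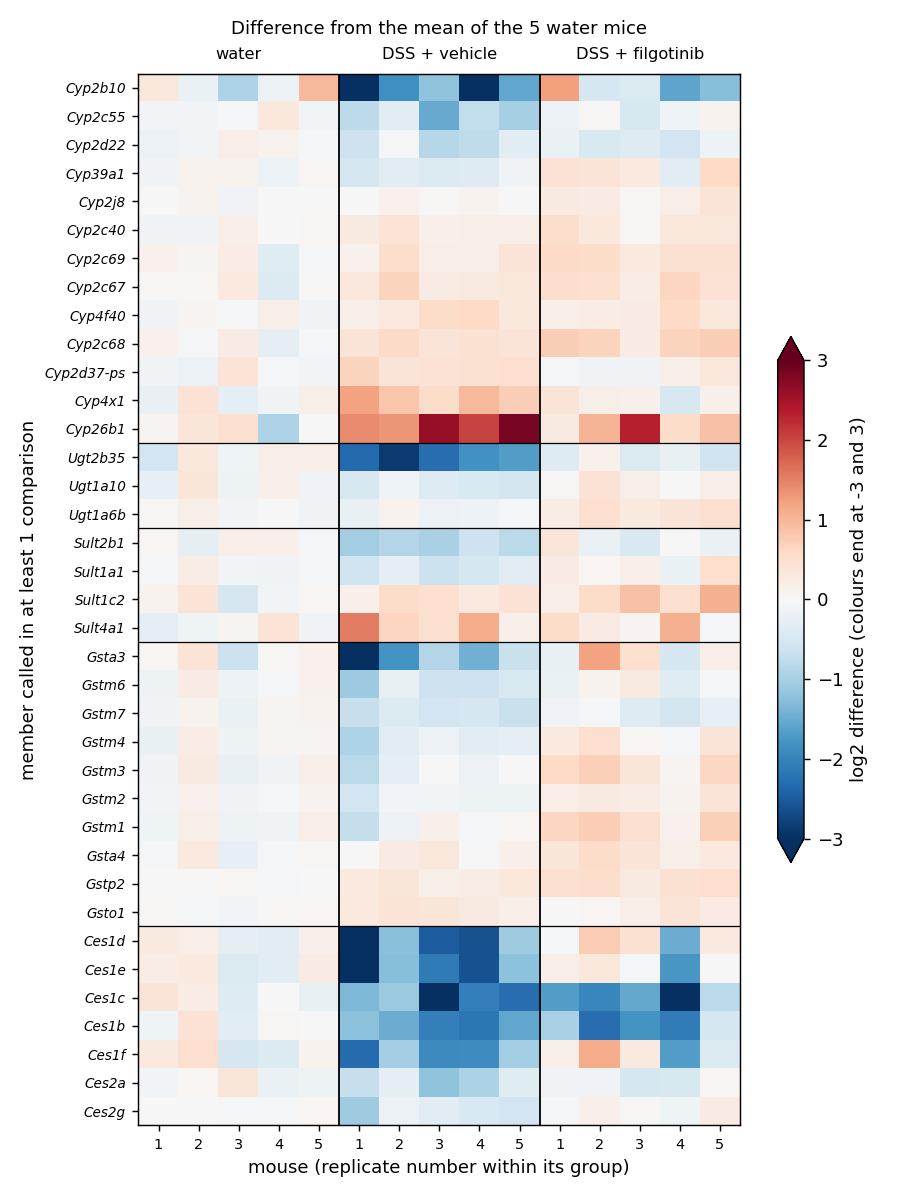
Log2 difference of each mouse from the mean of the 5 water mice for the 37 members called in at least 1 comparison, ordered by family and by their change with DSS (red higher, blue lower; colours end at -3 and 3). The Ces1 genes, Gsta3, Ugt2b35 and Cyp2b10 are blue in the DSS columns; Ces1b and Ces1c stay blue in the filgotinib columns, and filgotinib mouse 4 is blue for Ces1d, Ces1e and Ces1f.

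The remaining genes of the pathway were taken from fixed lists. Among the regulators, those that rose with DSS included the bile acid receptor Nr1h4 (log2 0.63, adjusted p = 0.00984), Pparg (0.38, 0.0145) and the glucocorticoid receptor Nr3c1 (0.24, 0.0389). With filgotinib against DSS 1 of 22 measured regulators changed, against 11.3% of all genes: Nr1i3, lower by 0.39 (adjusted p = 0.0340), while Ahr (0.27), Nr1i2 (-0.08) and Nfe2l2 (-0.09) did not pass. Against water, Ahr (0.33, adjusted p = 0.0323) and Arnt (0.25, 0.0166) were higher with filgotinib. Of 15 genes for electron supply and haem, Cpox fell with DSS (-0.36, adjusted p = 0.00962) and Cpox (0.35, 0.0184), Fdxr (0.37, 0.0417) and Por (0.41, 0.0465), the reductase that feeds microsomal P450 enzymes, rose with filgotinib.

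Of 32 measured other phase 1 genes 7 rose and 1 fell with DSS, and 5 rose and 1 fell with filgotinib against DSS, next to 19.2% and 11.3% of all genes called in either direction. The aldo-keto reductase Akr1b8 rose by 1.1 with filgotinib (adjusted p = 0.00775), from 15.5 to 32.7 in DSS mice to 34.1 to 72.7, and stood 1.64 above water (0.00242). The quinone reductase Nqo1, a textbook Nfe2l2 target, rose by 0.65 (adjusted p = 0.0270) and stood 1.09 above water (0.00509). Xanthine dehydrogenase Xdh rose with DSS (0.82, adjusted p = 0.00291) and was lower with filgotinib (-0.95, 0.00283). Of 19 genes for other conjugation and cofactor supply, 2 rose with filgotinib: Papss1 (0.28, 0.0482), which makes the sulfate donor, and glutathione synthetase Gss (0.24, 0.0325). Of 17 measured transporters, 3 rose and 2 fell with DSS, and with filgotinib the efflux pumps Abcb1b (0.57, 0.0159), Abcb4 (0.48, 0.0339) and Abcb1a (0.44, 0.0463) rose. With DSS 5 of 17 transporters and 1 of 15 electron supply and haem genes were called, against 19.2% of all genes; with filgotinib 3 of 17, 3 of 15 and 2 of 19 conjugation and cofactor genes, against 11.3%.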

How the data were processed

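RNA of 15 mice, 5 in each of 3 groups, was measured on Agilent 1-colour arrays. The deposited scanner files hold fluorescence intensity per spot, extracted with Agilent Feature Extraction 11.5.1.1 per the file headers, with the annotation on mm9; the processed signal is background-subtracted. The authors' deposited table of 32349 probes holds log2 values, which correlated with the log2 signal of their own arrays at 0.9988 to 0.9997; the submitters' processing notes name limma, and the centring of that table is not given in the sources used here.

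Control spots and 101 probes with outlier marks were left out. The other 56504 probes were divided by each array's 75th percentile and log2-transformed; probes well above background on at least 5 arrays were kept, and a gene was given its brightest such probe. Of the probes kept, 32939 were named through RefSeq by accession, 10207 by symbol, 347 by a file name shared with these, and 13011 kept the file's name. One limma 3.58.1 fit in R 4.3.3 over all 15 arrays gave the 3 comparisons, with Benjamini-Hochberg adjustment over 22012 genes; groups were taken from the treatment labels. Where a group was not well above background on any array, a fold is given as "at least", set against the higher of the array's lowest well-above-background signal and the probe's own. On data simulated for DSS against water over 22012 genes the fit recovered 58% of 1.5-fold, 84% of 2-fold and 98% of 4-fold changes. The number of arrays limits the precision.

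The named genes were, by rule, the 10 largest rises and falls that passed in each comparison, the 2 largest changes of families with fewer than 2 calls, and textbook members. The members, gene lists and rules were chosen with earlier results of these data known. Alternatives covered normalization, background correction, the deposited table, the filter, the probe rule, the groups fitted, slide, scan day and replicate number as blocks, and leaving out each mouse. Promoters were aligned with Biopython 1.88. One regulator is not reported here.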

Additional observations from a re-analysis of the deposited data

Results flagged for a closer look

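Within groups of 5 mice, 10 of 111 member-by-group sets had 1 mouse set apart from the other 4. On the log2 scale its gap exceeded Dixon's 95% critical value of 0.71 of the range, and chance gives about 1 in 20. The signals below are printed before the log was taken. Filgotinib mouse 4 was lowest for Ces1e at 0.167 (next 0.538) and for Cyp4x1 at 0.0513 (next 0.0797). Filgotinib mouse 3 was lowest for Cyp2c68 at 6.63 (next 8.96) and for Gstp2 at 145 (next 165). DSS mouse 1 was lowest for Gstm2 at 41.6 (next 54.9) and for Gstm4 at 1.08 (next 1.65), and DSS mouse 2 was highest for Cyp2c67 at 8.44 (next 6.75). Among water mice, mouse 4 was highest for Cyp2c55 at 107 (next 83.1), mouse 3 for Cyp2d37-ps at 8.63 (next 6.25) and mouse 2 for Sult1a1 at 59.5 (next 49.9).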

How the results depend on the processing

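No member's call changed direction under any alternative run. For DSS against water, median scaling gave 2 higher, and slide as a block 0 higher and 1 lower by limma (12 higher and 2 lower at an unadjusted p under 0.05). For filgotinib against DSS, fitting these groups alone gave 11 higher and slide as a block 2 higher; the lower count was 1 with median scaling or no filter, 4 in the deposited table and 0 with slide as a block (10 at an unadjusted p under 0.05). For filgotinib against water, 2 were higher with median scaling, quantile normalization or the deposited table, 3 with normexp, 6 with the mean of all probes or slide as a random block, 5 with these groups alone, 0 with slide as a block (14 unadjusted) and 39 of 173 without the filter; 1 was lower with quantile normalization or the deposited table, and 0 with at least 10 arrays (3 unadjusted) or slide as a block (0 unadjusted). Over all 22012 genes, filgotinib against water gave 1409 higher and 747 lower in the main fit. Median scaling gave 254 and 267 there, slide as a block 0 and 2, and leaving out the filter 7915 and 1136 of 37016 genes. For filgotinib against DSS the main fit gave 1492 and 996 over all genes. Slide as a block gave 234 and 203 there, and fitting these groups alone 754 and 522. The cause of these dependences was not tested. Leaving out 1 mouse gave 7 to 11 higher and 16 to 19 lower for DSS against water, 14 to 21 and 1 to 3 for filgotinib against DSS, and 3 to 11 and 1 to 3 for filgotinib against water.

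The deviations of same-numbered mice from their group means correlated at -0.515 to 0.532. Differently numbered mice were not correlated for reference, so these values cannot decide whether the replicate numbers pair mice. With the replicate block 9 rose and 17 fell for DSS against water, 17 and 1 for filgotinib against DSS, and 5 and 2 for filgotinib against water.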
